A study of Mus musculus with 21 samples.

Results

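Nppa and Nppb are neighbouring genes on mouse chromosome 4 that encode atrial natriuretic peptide and B-type natriuretic peptide. They were followed in the left ventricular free wall of 21 mice in which Lmna, the gene of the nuclear lamins A and C, was either floxed or wild type. The members were chosen by position: every quantified 3′-end interval on the + strand inside a window around each gene of the mm39 genome, keeping the most read of any that overlap. Each window held 1 interval, and both were kept, which makes 2 of the 46278 loci formed from the 208307 intervals of the deposited table. The Nppa interval carries the transcript ID ENSMUST00000103230.5 and lies on chromosome 4 from 148086244 to 148086536 (293 bases, 68 of them T). The Nppb interval carries the ID ENSMUST00000103231.5 and lies from 148071436 to 148071662 (227 bases, 94 of them T). Both are 3′-end counting intervals, and the files do not say which exon they fall in. Pooled over all libraries, 0.680% of the reads counted at Nppa and 0.413% of those at Nppb were multimapped.

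All mice carried the Myh6MCM transgene, in which the Myh6 promoter, active in cardiomyocytes, drives a Cre recombinase that enters the nucleus once tamoxifen is given. All of them received tamoxifen at 6 to 8 weeks of age on 4 days, and all received 4-thiouracil 2 weeks later, 6 hours before the heart was taken. The 4 groups are Lmna +/+ with the Uprt transgene (8 mice, 4 of each sex), Lmna F/F with Uprt (6 mice, 4 females and 2 males), Lmna +/+ without Uprt (3 mice, all male) and Lmna F/F without Uprt (4 mice, 2 of each sex). Uprt encodes uracil phosphoribosyltransferase, the enzyme that turns 4-thiouracil into a nucleotide that cells build into new RNA. The promoter of the Uprt transgene is not given in the sources used here. After alkylation a labelled base is read as C in place of T, so a T>C read is a read with at least 1 such change, and mice without Uprt give the background. A read is counted as T>C whatever the origin of the C. The deletion of Lmna in the F/F groups rests on the genotype labels: transcript IDs are not paired with gene names in the files used here, so neither the level of Lmna nor the cell type markers of the tissue were checked. Replicate numbers below only name mice.

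Natriuretic peptides are hormones that cardiomyocytes release when the heart wall is stretched. They bind a receptor guanylate cyclase in kidney, vessels and adrenal gland, and lower blood volume and pressure. Nppa is made mainly in the atria of the healthy adult heart and Nppb in both atria and ventricles. Higher ventricular expression of both is a widely used marker of a stressed or failing ventricle.

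The promoters of both genes show which sequence sits upstream of the 2 transcripts. The last 150 bases before each RefSeq start are printed on the + strand of build GRCm38.p6 (RefSeq), at chr4:148000572-148000721 for Nppa and chr4:147985750-147985899 for Nppb, with capitals marking matches, on either strand, to the GATAA core of sites for GATA factors, to the TATA box sequence TATAAA or to the M-CAT element GGAATG.
Nppa: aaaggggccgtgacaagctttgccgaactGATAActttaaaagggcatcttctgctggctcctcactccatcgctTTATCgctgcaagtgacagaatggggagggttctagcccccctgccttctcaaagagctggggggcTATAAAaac
Nppb: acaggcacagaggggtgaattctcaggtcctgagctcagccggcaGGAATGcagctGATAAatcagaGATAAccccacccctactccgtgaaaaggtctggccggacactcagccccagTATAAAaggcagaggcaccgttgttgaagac
The core GATAA matched at 2 places in each promoter, 121 and 75 bases before the start of Nppa and 94 and 83 bases before that of Nppb. The second Nppa match lies on the opposite strand. A window of this length held GATAA in 13.6% of 27025 RefSeq promoters. The TATAAA sequence matched once in each gene, 9 bases before the start of Nppa and 31 bases before that of Nppb. It is present in 8.08% of promoters. The GGAATG element matched in Nppb, and not in Nppa, 105 bases before the start, and is present in 7.64% of promoters. These matches are letters in a window, and no measurement of binding was made.

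The libraries held between 25947354 and 50951618 reads on loci, of which 23.7% to 33.6% were mitochondrial and 3.08% to 5.92% were T>C reads. Nppa had 247153 reads over the 21 libraries, from 1769 to 39287 in a mouse, and Nppb 3629, from 28 to 712 in a mouse. Counting error is therefore much larger for Nppb. Levels are given as CPM, reads per 1000000 reads of the library, scaled with TMM, a normalization that sets the bulk of loci level between libraries. Each library stands for 1 mouse, but the labels do not say which mice were littermates. In ventricular tissue as a whole, more RNA per cell and more cells of a type cannot be told apart.

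Nppb was higher in Lmna F/F than in Lmna +/+ ventricles, both with and without Uprt. With Uprt the level in the 8 Lmna +/+ mice was lowest at 1.14, at the median 2.45 and highest at 4.42 CPM. In the 6 Lmna F/F mice with Uprt it was lowest at 3.28, at the median 4.33 and highest at 9.87 CPM. The ranges overlapped through 1 mouse: Lmna +/+ replicate 6, at 4.42 CPM, was the only +/+ mouse of this pair of groups above the lowest F/F mouse, and the other 7 did not exceed 2.97 CPM. The means were 5.63 ± 2.82 CPM (SD, n = 6) and 2.53 ± 0.98 CPM (SD, n = 8), a ratio of 2.22. The fit gave a log2 difference of 1.22 ± 0.31 (SE, edgeR adjusted p = 0.0224), so 1 of the 2 genes was called higher here, where 3.54% of the 20523 loci tested were. The call was lost without Lmna F/F replicate 2 (log2 difference 1.02, edgeR adjusted p = 0.0820) and without replicate 5 (1.03, adjusted p = 0.0927), which are the F/F mice with the most Nppb.

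**Figure D1:**
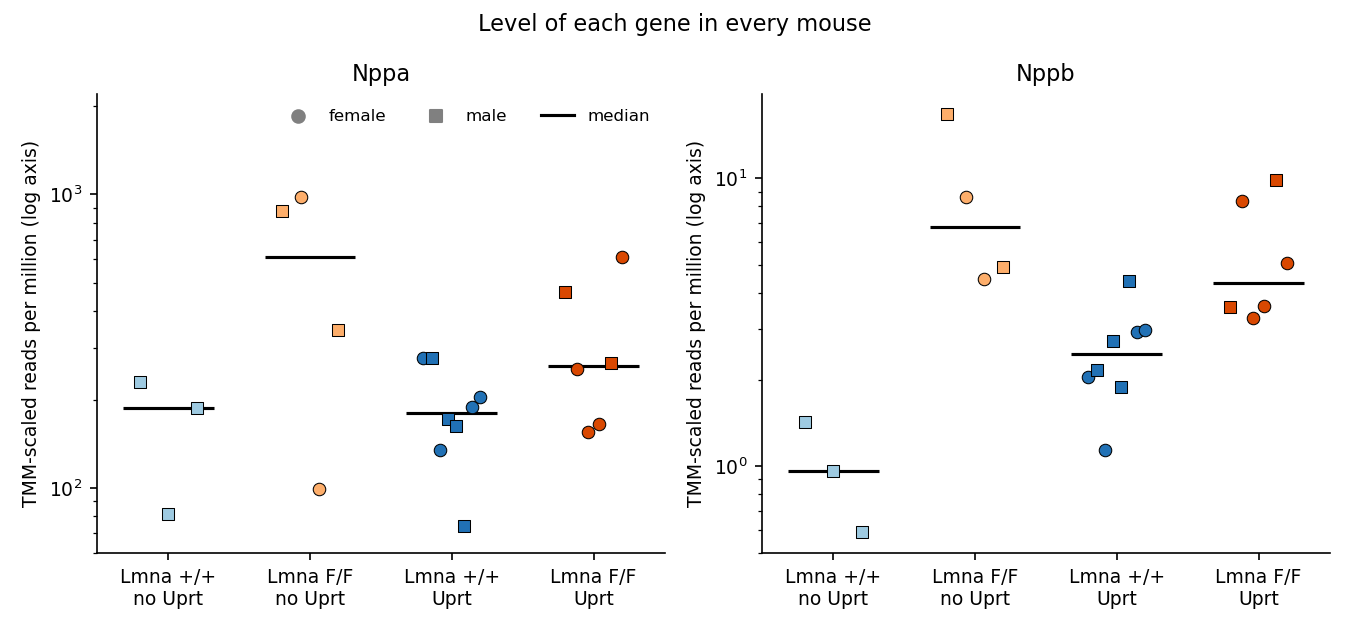
Level of Nppa (left) and Nppb (right) in every mouse, in TMM-scaled CPM on log axes, with circles for females, squares for males and a line at each group's median. All 4 Lmna F/F mice without Uprt lie above all Lmna +/+ mice for Nppb, while the groups overlap for Nppa.

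Without Uprt the separation of Nppb was wider. The 3 Lmna +/+ mice had 1.42, 0.962 and 0.590 CPM (52, 38 and 28 reads). The 4 Lmna F/F mice had 16.7, 8.64, 4.49 and 4.91 CPM (712, 346, 184 and 240 reads). The groups did not overlap, and even the lowest F/F mouse stood 3.07 CPM above the highest +/+ mouse. The means were 8.68 ± 5.65 CPM (SD, n = 4) and 0.992 ± 0.418 CPM (SD, n = 3), a ratio of 8.75. Nppb was called, with a log2 difference of 3.32 ± 0.51 (SE, edgeR adjusted p = 0.000414), where 5.42% of the loci tested were called higher. A fit on these 7 libraries alone gave 3.45 with an adjusted p of 0.0797 in edgeR, and called 5 loci in all.

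Nppa, the atrial peptide's gene, was not called in either comparison. With Uprt its level in the 8 Lmna +/+ mice was lowest at 74.4, at the median 180.4 and highest at 277 CPM. In the 6 Lmna F/F mice it was lowest at 155, at the median 260.5 and highest at 611 CPM. Only 2 of the 6 F/F mice, replicates 1 and 6, exceeded the highest +/+ mouse. The log2 difference was 0.78 ± 0.38 (SE, edgeR adjusted p = 0.277), with means of 319 ± 181 CPM (SD, n = 6) and 186 ± 68.3 CPM (SD, n = 8). It was 0.47 without F/F replicate 6, and 0.56 in females and 1.10 in males alone (edgeR adjusted p = 0.565, 0.747 and 0.342).

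Without Uprt the 3 Lmna +/+ mice had 229, 81.3 and 187 CPM of Nppa. The 4 Lmna F/F mice had 877, 981, 99.5 and 344 CPM. Here 3 of 4 F/F mice were above every +/+ mouse, and the fourth, replicate 3, lay within the +/+ range. The log2 difference was 1.81 ± 0.59 (SE, edgeR adjusted p = 0.0570), and the means were 576 ± 422 CPM (SD, n = 4) and 166 ± 76.1 CPM (SD, n = 3). Alternatives fell on both sides of the threshold, and 5 of 10 kept the value uncalled. A fit on these 7 libraries alone gave 1.87 with an adjusted p of 0.286 in edgeR. DESeq2 gave 1.82 with an adjusted p of 0.0355, and scaling by library size alone gave 2.02 with 0.0383. In males alone edgeR gave 1.88 with 0.0298, and with no sex term 1.80 with 0.0468. Leaving out 1 library also gave a call in edgeR in 4 of 21 cases. For the mice lacking Uprt these were without F/F replicate 3 (2.09, adjusted p = 0.00729) or replicate 4 (2.04, 0.0350). For those with Uprt they were without +/+ replicate 6 (1.87, 0.0433) or F/F replicate 6 (1.90, 0.0409). The highest edgeR adjusted p of the 21 cases was 0.249. The mouse lowest in Nppa among the F/F mice without Uprt, replicate 3, was also the lowest in Nppb, and the pair highest in Nppa were also the pair highest in Nppb.

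The Lmna differences were smaller with Uprt than without for both genes, but the difference between them was not called. For Nppb it was -2.09 ± 0.57 on the log2 scale (SE, edgeR unadjusted p = 0.00111, adjusted p = 0.471). For Nppa it was -1.03 ± 0.69 (SE, edgeR adjusted p = 0.710), and -0.63 without F/F replicate 2 lacking Uprt. In this test 0% of loci were called by edgeR (0 of 20523, while 1743 had an unadjusted p under 0.05). The count of calls in DESeq2 was 5. The mean effect of Uprt over both Lmna genotypes was 0.52 ± 0.30 for Nppb (SE, edgeR adjusted p = 0.566) and -0.33 ± 0.35 for Nppa (adjusted p = 0.786), where 0.122% of loci were called in either direction. Between females and males the log2 difference was -0.43 ± 0.27 for Nppb (SE, edgeR adjusted p = 0.586) and -0.03 ± 0.34 for Nppa (adjusted p = 0.989), where 0.132% of loci were called. Neither gene was called for Uprt or for sex. The mean effect of Uprt averages unlike directions. In Lmna +/+ the mean Nppb level was 2.55 times higher with Uprt, and in F/F it was 1.54 times higher without. For Nppa these ratios of means were 1.12 and 1.80, in the same directions. On all reads, Uprt was not tested within either Lmna genotype. By sex, mean Nppb with Uprt was 5.08 ± 2.33 CPM in F/F females against 2.27 ± 0.86 in +/+ females (SD, n = 4 each), and 6.72 ± 4.46 in F/F males (SD, n = 2) against 2.80 ± 1.13 in +/+ males (SD, n = 4). The log2 difference was 1.17 in females alone and 1.28 in males alone, with edgeR adjusted p-values of 0.188 and 0.291.

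Ordered by median, Nppb was lowest in Lmna +/+ without Uprt (0.962 CPM), then Lmna +/+ with Uprt (2.45), Lmna F/F with Uprt (4.33) and Lmna F/F without Uprt (6.77). Each pair of neighbours in this order overlapped in range. The groups 2 or more places apart did not: all 4 F/F mice without Uprt exceeded all 8 +/+ mice with Uprt, by as little as 0.0719 CPM, and all 6 F/F mice with Uprt exceeded the 3 +/+ mice without it. For Nppa the order by mean was Lmna +/+ without Uprt, Lmna +/+ with Uprt, Lmna F/F with Uprt and Lmna F/F without Uprt, and every pair of groups overlapped in range. By median the 2 Lmna +/+ groups change places, at 187 CPM without Uprt and 180.4 with it.

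**Figure D2:**
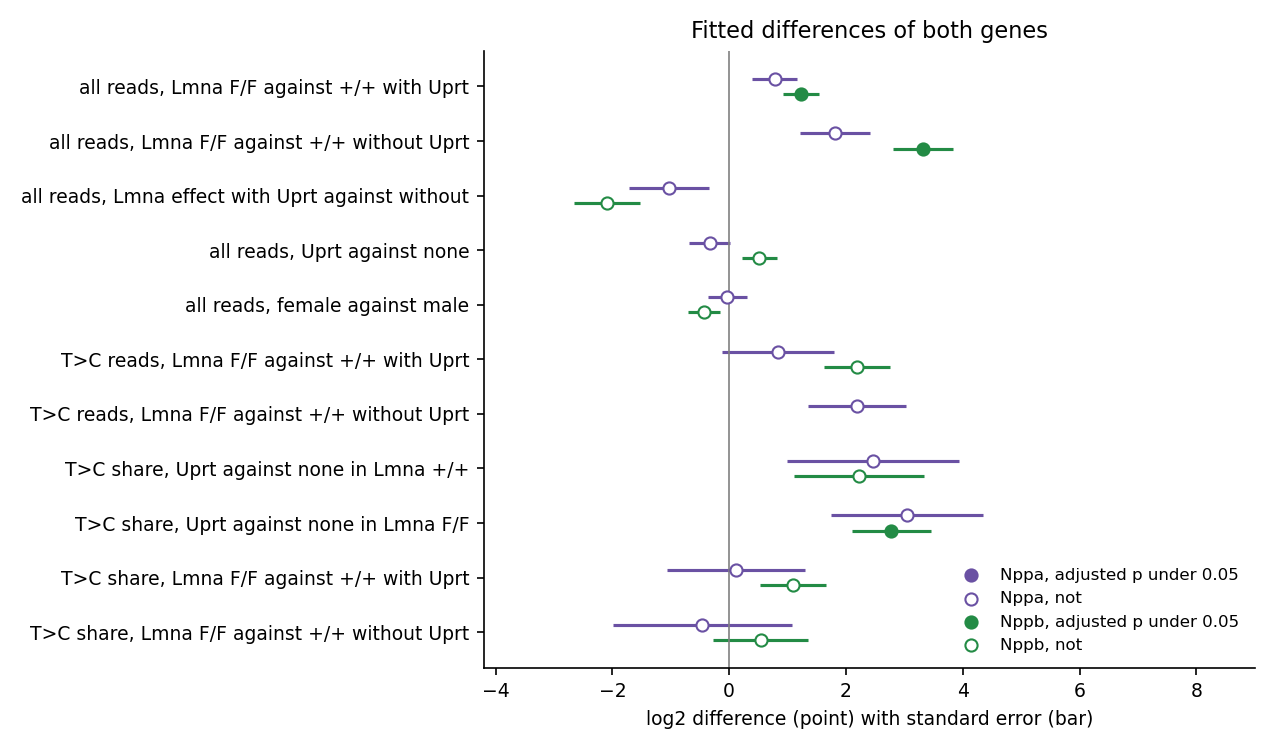
Fitted log2 differences of Nppa (purple) and Nppb (green) in each comparison, with bars of 1 standard error; filled points have an edgeR adjusted p under 0.05 over all loci tested. Filled points are Nppb in both Lmna comparisons of all reads (1.22 and 3.32) and in the share of T>C reads between Uprt and none in Lmna F/F (2.77).

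The balance between the 2 genes within a mouse needs no scaling by library. The log2 ratio of Nppa to Nppb reads with Uprt was 6.19 ± 0.97 (SD, n = 8) in the Lmna +/+ mice, against 5.78 ± 0.97 (SD, n = 6) in the F/F mice. The difference of -0.41 was within the spread of the mice (two-sided exact permutation test, p = 0.450, adjusted over the pair of tests p = 0.450). Without Uprt the 3 Lmna +/+ mice stood at 7.33, 6.40 and 8.31, and the 4 Lmna F/F mice at 5.72, 6.83, 4.47 and 6.13. The ratio was lower in F/F by 1.56 on average, with overlap between the groups (two-sided exact permutation test, p = 0.114, adjusted p = 0.229), in a design whose smallest two-sided p is 0.0571. Lmna +/+ with Uprt replicate 6 had the lowest ratio of all mice, 4.07, with the lowest Nppa (74.4 CPM) and the highest Nppb (4.42 CPM) of its group.

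Across mice of 1 group the levels of the 2 genes showed no relation that passed the test. In the 8 Lmna +/+ mice with Uprt, Pearson's r of log2 CPM was -0.36 (exact permutation p = 0.376) and Spearman's rho -0.05 (exact permutation p = 0.935). In the 6 Lmna F/F mice with Uprt, r was 0.13 (exact permutation p = 0.808) and rho 0.37 (exact permutation p = 0.497). All 4 adjusted p-values are 0.935. Leaving out the 2 mice farthest from the Nppa median turned r to 0.53 in the +/+ mice (n = 6, exact permutation p = 0.250), and leaving out replicate 6 alone turned it to 0.39 (n = 7, exact permutation p = 0.401). In the F/F mice r became 1.00 over the 4 mice left (exact permutation p = 0.0833, the smallest it can give for 4 mice). Leaving out 1 F/F mouse gave r from -0.14 to 0.36. The sign of r in the +/+ mice thus rests on replicate 6. The rise in the F/F mice came only from leaving out 2 mice chosen by their Nppa level.

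**Figure D3:**
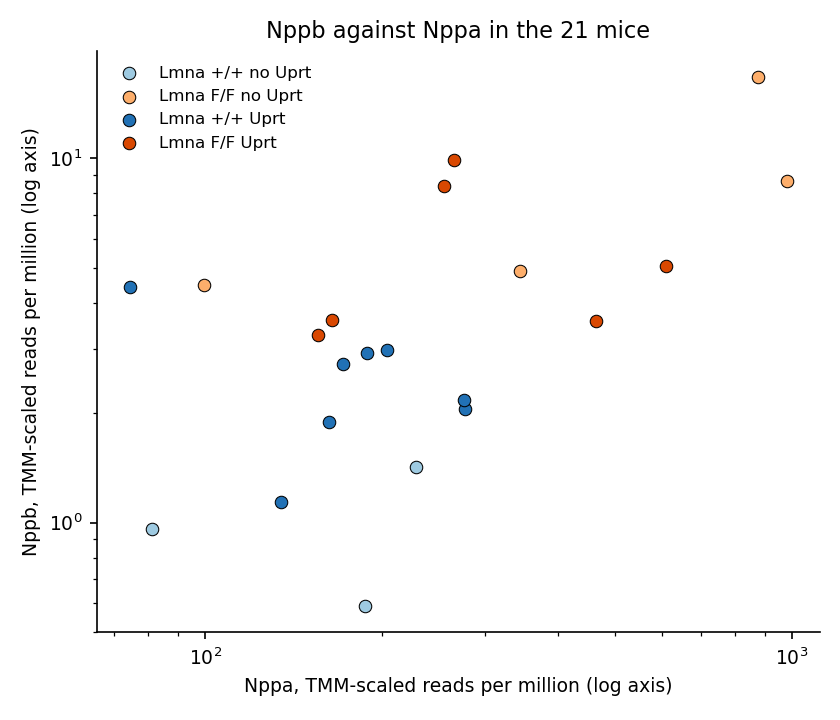
Nppb against Nppa in the 21 mice, both in TMM-scaled CPM on log axes, coloured by group. The Lmna +/+ with Uprt mouse at the far left, at 74.4 CPM of Nppa and 4.42 CPM of Nppb, is replicate 6.

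T>C reads of Nppb were few. The 6 Lmna F/F mice with Uprt had 16 to 74 of them, with a lowest, median and highest level of 0.383, 0.577 and 2.09 CPM of T>C reads. The 8 Lmna +/+ mice with Uprt had 1 to 22, with 0.0421, 0.119 and 0.711 CPM. Replicates 7 and 8 of the +/+ group, with 17 and 22 T>C reads, lay within the F/F range, and the other 6 had 1 to 5. The log2 difference in T>C reads of Nppb was 2.19 ± 0.57 (SE, edgeR adjusted p = 0.130), not called, where 0.452% of the 10621 loci tested were called higher. DESeq2 gave 2.26 with an adjusted p of 0.0158, and edgeR without Lmna +/+ replicate 8 gave 2.62 with 0.0351. Without Uprt, Nppb had 11, 8, 5 and 7 T>C reads in the 4 Lmna F/F mice and 0, 0 and 1 in the 3 Lmna +/+ mice. It did not pass the low-count filter there, so it was not tested.

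For Nppa, T>C reads with Uprt ran from 78 to 7787 in the 6 Lmna F/F mice and from 9 to 2573 in the 8 Lmna +/+ mice. The lowest, median and highest CPM of T>C reads were 1.87, 23.0 and 169 in F/F, and 0.379, 17.3 and 77.0 in +/+. The groups overlapped, with 1 F/F mouse above every +/+ mouse, and the log2 difference of 0.84 ± 0.96 (SE, edgeR adjusted p = 0.940) was not called. Without F/F replicate 6, the mouse with 7787, it was -0.13. Most of these reads come from mice whose Nppa share, given below, was 23.6% or more, and how far they measure label was not tested. Without Uprt the 4 F/F mice had 268, 355, 28 and 138 T>C reads and the 3 +/+ mice 29, 22 and 96. That difference was 2.19 ± 0.84 (SE, edgeR adjusted p = 0.513; 1.18 without F/F replicate 1), where 0.0342% of 8765 loci were called higher.

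The share of reads that carry a conversion sets T>C reads against all reads of the gene in the same mouse. For Nppb it was 14.05%, 18.7%, 11.7%, 16.4%, 21.2% and 11.2% in Lmna F/F replicates 1 to 6 with Uprt. Without Uprt the 4 F/F mice had 1.54%, 2.31%, 2.72% and 2.92%. All 6 mice with Uprt were above all 4 without, and the log2 odds ratio was 2.77 ± 0.68 (SE, edgeR adjusted p = 0.00208), where 45.4% of the 11938 loci tested were called higher. The median over all loci was 1.14, and 94.1% of loci had a lower value than Nppb. The exact permutation test over mice gave a difference of 13.2 percentage points with p = 0.00952, the smallest it can give for 6 against 4 mice, and 0.0381 after adjustment over 8 tests.

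In Lmna +/+ the Nppb share was more spread. The 8 mice with Uprt ran from 0.952% to 23.9% with a median of 6.41%, and each rests on 42 to 111 reads. Replicate 8 stood at 23.9% (95% Wilson interval 16.4% to 33.6%) and replicate 6 at 0.952% (0.168% to 5.20%), and these intervals do not overlap. The 3 mice without Uprt had 0 of 52 reads, 0 of 38 reads and 1 of 28 reads. The 95% Wilson interval of the count of 0 reached up to 6.88% and 9.18% in the first pair, and the third was at 3.57%. The log2 odds ratio between Uprt and none was 2.22 ± 1.11 (SE, edgeR adjusted p = 0.116), not called, where 37.2% of loci were. It was 4.38 with an adjusted p of 0.0467 in edgeR without +/+ replicate 3 of the mice lacking Uprt, whose single T>C read is the group's only one. The group without Uprt is all male, and the 4 males with Uprt had 0.952% to 5.97%, against 6.85% to 23.9% in the 4 females. Intervals and limits cover counting error only, and treat each read as independent. Reads were not counted as separate molecules, so the intervals may be too narrow.

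**Figure D4:**
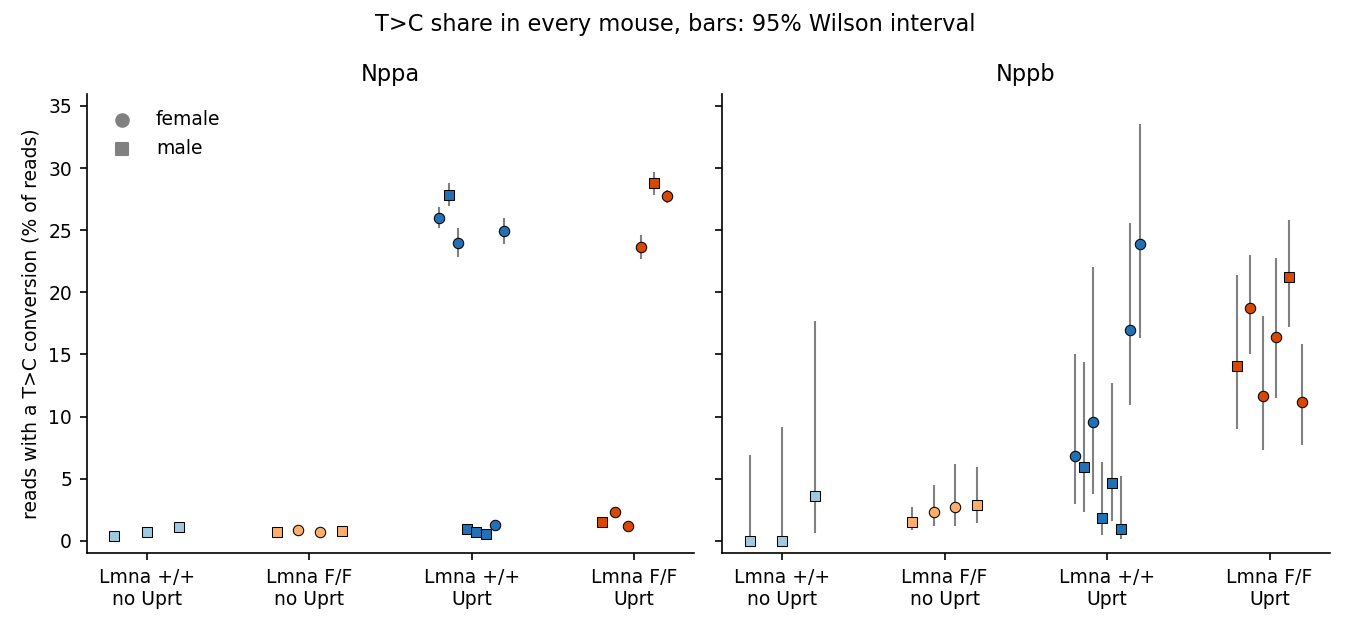
Percentage of reads that are T>C reads at Nppa (left) and Nppb (right), for every mouse, with 95% Wilson intervals, circles for females and squares for males. At Nppa the mice with Uprt lie either between 23.6% and 28.8% or between 0.509% and 2.30%, and at Nppb they spread from 0.952% to 23.9%.

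The Nppb share did not differ by Lmna genotype in a way the tests called. With Uprt its mean was 15.5% ± 3.98 in F/F (SD, n = 6) and 8.83% ± 7.89 in +/+ (SD, n = 8). The log2 odds ratio was 1.09 ± 0.57 (SE, edgeR adjusted p = 1.000), in a comparison where 0.00838% of loci, 1 in all, were called, and 321 had an unadjusted p under 0.05. The exact permutation test gave p = 0.0866, and 0.173 after adjustment over 8 tests. By sex the means were 14.5% ± 3.66 in F/F and 14.3% ± 7.70 in +/+ females (SD, n = 4 each), and 17.6% ± 5.06 in F/F (SD, n = 2) and 3.33% ± 2.35 in +/+ males (SD, n = 4). Whether the Lmna difference depends on sex was not tested. No F/F mouse exceeded the highest +/+ mouse, but 6 of the 8 +/+ mice were below every F/F mouse. Without Uprt the log2 odds ratio was 0.54 ± 0.82 (SE, edgeR adjusted p = 0.973), where 0.0168% of loci were called.

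T>C reads of Nppb held more than 1 conversion on average in all 6 F/F mice with Uprt, at 1.19 to 1.38 conversions per T>C read. Of the 8 +/+ mice with Uprt, replicates 2, 7 and 8 had 2.00, 1.35 and 1.91, and the other 5 had 1.00, on 1 to 5 T>C reads each. The value of replicate 2 rests on 4 T>C reads, and 9 of the 67 Nppb reads of that mouse were multimapped. In the F/F mice without Uprt the value was 1.00 in 3 and 1.14 in 1. Over all nuclear loci the libraries with Uprt had 1.05 to 1.10 and those without 1.03 to 1.05. A read at Nppb covered more T positions in some mice than in others, from 14.5 to 23.2 on average.

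The Nppa share was unlike the Nppb share. Among the 14 mice with Uprt it was 26.0%, 27.9%, 24.0% and 24.9% in Lmna +/+ replicates 1, 2, 3 and 8, and 23.6%, 28.8% and 27.7% in Lmna F/F replicates 4, 5 and 6. In the other 7 it was 0.930%, 0.696%, 0.509% and 1.30% in +/+ replicates 4 to 7, and 1.53%, 2.30% and 1.20% in F/F replicates 1 to 3. No mouse lay between 2.30% and 23.6%, and the Wilson intervals of the lower and upper mice, each on 1769 to 28094 reads, did not come near each other. The mice without Uprt had 0.716%, 0.904%, 0.686% and 0.820% in F/F and 0.347%, 0.685% and 1.08% in +/+. Over all nuclear loci the share in the 14 libraries with Uprt ran only from 4.52% to 5.95%.

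Both the high and the low values occur in both Lmna genotypes. The mean Nppa share was 14.2% ± 13.8 in F/F (SD, n = 6) and 13.3% ± 13.3 in +/+ with Uprt (SD, n = 8), and the log2 odds ratio was 0.12 ± 1.18 (SE, edgeR adjusted p = 1.000). Between Uprt and none it was 3.05 ± 1.30 in F/F (SE, edgeR adjusted p = 0.0593) and 2.46 ± 1.47 in +/+ (adjusted p = 0.188), neither of them called. The F/F value was called in edgeR without F/F replicate 1 (3.64, adjusted p = 0.0464), 2 (3.60, 0.0312) or 3 (3.68, 0.0242) with Uprt, which are the low mice, and without +/+ replicate 5 (3.13, 0.0480) or 6 (3.12, 0.0495) with Uprt. In F/F even the lowest mouse with Uprt, at 1.20%, was above the highest without, at 0.904%. The exact permutation test over mice in F/F gave 13.4 percentage points with p = 0.00952, and 0.0381 after adjustment over 8 tests. A base that is C in a mouse's own genome would be counted in the same way as a labelled one. Whether these values measure label or a sequence difference between mice was not tested, and conversions per read and the shares of nearby loci are given below. In +/+ the ranges overlapped, with 5 of 8 mice with Uprt above all 3 without (exact permutation p = 0.109, adjusted p = 0.175). Without Uprt the log2 odds ratio of Nppa between Lmna genotypes was -0.46 ± 1.53 (SE, edgeR adjusted p = 0.984).

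T>C reads of Nppa held close to 1 conversion each, also where they were many. The value was 1.01 to 1.04 conversions per T>C read in the 7 mice at 23.6% or more, which is less than at Nppb in the F/F mice with Uprt. A read at Nppa covered 20.9 to 22.2 T positions on average. Counted per 100 covered T positions, those 7 mice had 1.14 to 1.37 conversions and the other 7 with Uprt had 0.0235 to 0.105. In Lmna F/F replicates 1 to 3 with Uprt, where Nppa stood at 1.20% to 2.30%, Nppb stood at 11.7% to 18.7%. In Lmna +/+ replicate 7 Nppa stood at 1.30% and Nppb at 17.0%, and in replicate 2 Nppa stood at 27.9% and Nppb at 5.97%.

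The T>C share of other loci near the pair was set beside that of Nppa. RefSeq lists 2510039O18Rik before Nppb and Clcn6 after Nppa. Neither name could be tied to a locus. The next locus before the pair that passed the low-count filter lies on the + strand from 148031076 to 148031771, 54472 bases from Nppa. Its share was 22.0% to 35.9% in the 7 mice where Nppa was high and 7.04% to 12.9% in the other 7 mice with Uprt. It also stood at 23.0% in F/F replicate 2 and 19.9% in +/+ replicate 3 without Uprt, while the other 5 mice without Uprt had 0.917% to 3.22%. Within 100 kb of the pair, 4 more loci passed the filter besides these 2 genes and the next locus on each side, and were added after their values were seen. The locus from 148161518 to 148164939 (- strand) had 14.1% to 22.4% in the same 7 mice, 2.83% to 4.87% in the other 7 with Uprt, and 13.0% and 14.3% in the same 2 mice without Uprt, in which Nppa was at 0.904% and 1.08%. The locus from 148140046 to 148144008 (+ strand), which is nearer, did not split the mice this way: it stood at 4.00% in +/+ replicate 2 and 11.3% in F/F replicate 6, where Nppa was high, and at 18.2% and 16.1% in +/+ replicates 5 and 6, where Nppa was low. The locus from 147994210 to 147995175 (- strand) stayed between 0.536% and 3.86% in all 21 mice. The locus from 148012074 to 148012403 (- strand) ran from 0% to 18.2%, on as few as 27 reads in a mouse.

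**Figure D5:**
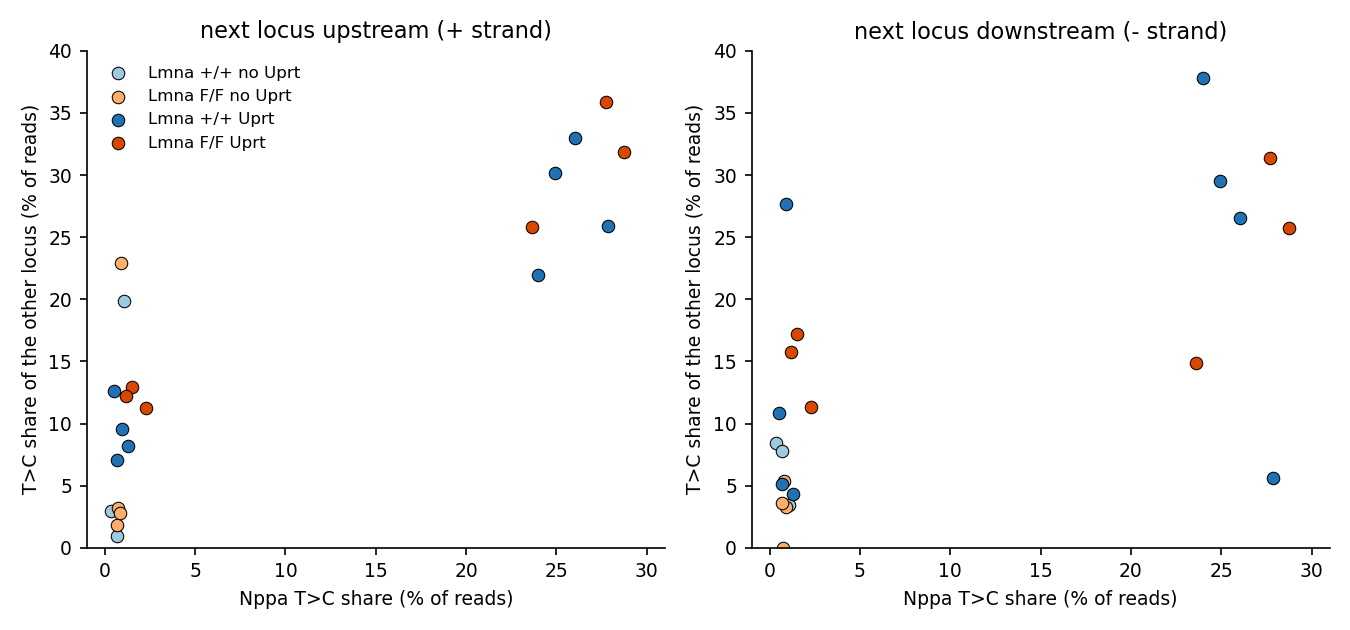
T>C share of the next tested locus before the pair (+ strand, left) and after it (- strand, right) against that of Nppa, in percent of reads, for the 21 mice, coloured by group. The 7 mice at 23.6% to 28.8% for Nppa are all at 22.0% or more in the left panel, with 1 mouse of each group without Uprt at 19.9% or more, and run from 5.62% to 37.8% in the right panel.

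The locus directly after the pair lies on the - strand from 148088716 to 148091237, 2179 bases from Nppa, and rests on 44 to 121 reads in a mouse. Its share with Uprt ran from 4.35% to 37.8% and without Uprt from 0% (0 of 59 reads) to 8.43%. It did not follow the split at Nppa: +/+ replicate 2 stood at 5.62% and +/+ replicate 4 at 27.6%. Among 12760 loci with at least 20 reads in every library, no other locus had exactly the mice of Nppa above 10%, and 7 differed from it in 1 mouse. That count rests on the threshold of 10% and on all mice. Among the mice with Uprt alone, the locus before the pair and that from 148161518 split as Nppa did, at other shares. Whether the sequence of this stretch differs between the mice was not tested, and no filter on sequence variants is given in the sources used here.

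The level of the neighbours lay close together in the 4 groups. The locus before the pair had, with Uprt, 14.3 ± 1.81 CPM (SD, n = 8) in +/+ and 13.96 ± 3.20 (SD, n = 6) in F/F mice, and, lacking it, 15.1 ± 1.37 (SD, n = 3) and 16.0 ± 1.81 (SD, n = 4). The locus after the pair had group means between 2.03 and 2.18 CPM. The group ranges overlapped at both.

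The loci whose level was most like that of each gene over the 21 libraries are given by position, as a description. For Nppb they lie on chromosome 5 from 21580959 to 21583372 (+ strand, Pearson's r of log2 CPM 0.93), chromosome 9 from 71202893 to 71203525 (+, 0.91) and chromosome 16 from 62748557 to 62749709 (+, 0.90). The chromosome 5 locus had, with Uprt, 22.7 ± 5.17 CPM (SD, n = 8) in +/+ mice and 51.4 ± 23.6 (SD, n = 6) in F/F mice. Without Uprt it had 15.1 ± 1.42 in +/+ (SD, n = 3) and 80.7 ± 40.2 in F/F (SD, n = 4). The order of groups was that of Nppb, which the choice of the locus by its correlation with Nppb favours. For Nppa they lie on chromosome 15 from 102370651 to 102371211 (+, 0.84), chromosome 9 from 40922394 to 40926194 (-, 0.81) and chromosome 7 from 122227038 to 122227878 (+, 0.81). Between Nppa and Nppb themselves r over the 21 libraries was 0.57. These values were ranked over the 8905 loci that averaged 5 CPM or more, and all loci share the libraries and their 4 groups.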

How the data were processed

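The table holds 1 row for each 3′-end interval and library; its values used here are counts, per the file headers: reads, T>C reads, multimapped reads, covered T positions and conversions. It also holds a column of CPM that was not used. Libraries were QuantSeq 3′ libraries of alkylated poly(A) RNA read over 100 bases, per the labels, and positions are in mm39 (the build in the submitters' processing notes); the aligner is not given in the sources used here. Overlapping intervals of 1 strand were reduced to the most read, and those sharing a transcript ID were summed. The 0 columns of other samples left nothing out.

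Counts were tested with edgeR 4.0.16 (R 4.3.3; filterByExpr with a minimum count of 10, TMM, quasi-likelihood, Benjamini-Hochberg over all loci, threshold 0.05): all reads in 1 fit of 21 libraries with group and sex, T>C reads within the 14 mice with Uprt and the 7 without, and the share from T>C and other reads of each library. SE is the log2 difference over the root of F. DESeq2 1.42.0 is an alternative; log2 CPM used a pseudocount of 0.5. Exact tests used scipy 1.17.1. The code was tested on simulated data. Named loci are the 2 genes, the next tested locus on each side, and the 3 loci with mean of at least 5 CPM most correlated with each; 4 further loci within 100 kb of the pair were added after their values were seen. The genes and lists were chosen with earlier results of these data known. The lists of natriuretic pathway genes and cell type markers could not be run, because 0 transcript IDs matched the reference table.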

Additional observations from a re-analysis of the deposited data

Results flagged for a closer look

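In the Lmna +/+ mice with Uprt, replicate 6 had a log2 ratio of Nppa to Nppb reads of 4.07, and the next lowest of the 8 mice was at 5.98; the gap is large for the group's range. In the Lmna F/F mice without Uprt, replicate 4 had 1.14 conversions per T>C read at Nppb, 8 conversions in 7 reads, and the other 3 mice had 1.00. Because those 3 were tied, any higher value in 1 mouse would have been flagged. The same comparison of each extreme mouse with its group was made for 27 sets of values, and chance flags about 1 in 20 where values are not tied.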

How the results depend on the processing

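Of 612 values under alternatives to the processing, 548 kept their direction and their side of the threshold, 5 lost a call, 28 gained one and 31 changed sign. The Nppb difference without Uprt kept its call in all cases but the fit of the 7 libraries alone (3.45), and the Nppb difference with Uprt in all but females alone (1.17), males alone (1.28) and 2 of 21 fits that leave out 1 library. Nppb rests on 28 to 712 reads in a mouse and Nppa on 1769 to 39287.

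For the other values the cause of a change was not tested. Without the low-count filter edgeR gave much smaller standard errors (0.14 in place of 0.38 for Nppa with Uprt) and called Nppa with Uprt (0.79), without it (1.82), and the difference between those of Nppa (-1.03) and Nppb (-2.10). It also called the T>C reads of Nppa with Uprt (0.84) and without (2.16) and of Nppb with Uprt (2.19), and the Nppa share between Uprt and none in +/+ (2.44) and F/F (3.04). Nppa without Uprt was called by DESeq2 (1.82), with library size alone (2.02), with no sex term (1.80) and in males alone (1.88). DESeq2 called the T>C reads of Nppb with Uprt (2.26). The Nppa share in F/F between Uprt and none was called with no sex term (3.36) and by the exact permutation test on percent of reads (13.4 points) and on conversions per 100 covered T (0.635). Uncalled values that changed sign were Nppa between the sexes with library size alone (0.060), the Nppa share by Lmna without Uprt with no sex term (0.25) and by permutation (0.0766 points and 0.00310 per 100 T), and r (from -0.36 to 0.53) and rho (from -0.05 to 0.66) in the Lmna +/+ mice without the 2 farthest.

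Leaving out 1 library gave these ranges of log2 differences, for results that changed a call, a sign or their size by over 1.5 times. All reads of Nppb with Uprt ran from 1.02 to 1.39 and between sexes from -0.57 to -0.22 (without F/F replicate 1 lacking Uprt). All reads of Nppa ran with Uprt from 0.47 (without F/F replicate 6) to 0.92, without Uprt from 1.44 to 2.11, in the difference between those from -1.43 to -0.63, between Uprt and none from -0.56 to 0.020 (above 0 only without F/F replicate 2 lacking Uprt) and between sexes from -0.30 to 0.13. T>C reads with Uprt ran from -0.13 to 2.24 for Nppa and from 1.59 to 2.62 for Nppb, and without Uprt from 1.18 to 2.78 for Nppa. The log2 ratio of the genes by Lmna with Uprt ran from -0.71 (without +/+ replicate 6) to -0.20 (without F/F replicate 5). The share between Uprt and none ran from 2.17 to 3.68 for Nppa in F/F, from 1.64 to 3.15 for Nppa in +/+, lowest without +/+ replicate 2 with Uprt, and from 1.53 to 4.38 for Nppb in +/+. The share by Lmna ran from -0.70 to 0.78 for Nppa with Uprt, from -0.90 to -0.0040 for Nppa without Uprt (nearest 0 without +/+ replicate 3) and from -0.16 to 2.69 for Nppb without Uprt, below 0 only without +/+ replicate 1. In Lmna +/+ mice r ran from -0.78 to 0.39 and rho from -0.32 to 0.43, and in F/F mice r from -0.14 to 0.36 and rho from -0.10 to 0.70. The count of loci called by Lmna with Uprt was 901 and ran from 508 to 1079 without 1 library, was 183 in females and 205 in males alone, 1380 in DESeq2, 1444 with library size alone and 1679 with no filter. Without Uprt it was 1828 and ran from 544 to 2671, with 5 in the 7 libraries alone and 1021 in males alone. DESeq2 and the fit with no filter called 133 and 393 loci for Uprt (25 in the report's fit), 250 and 598 for sex (27), 5 and 345 for the difference between the Lmna effects (0), 106 and 184 for T>C reads with Uprt (53) and 81 and 255 without (3). With no filter the share by Lmna was called at 23 loci with Uprt (1) and 78 without (2).

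No paired analysis was possible because the labels give the mice no replicate numbers, so the numbers used here follow the accession order and pair no mice.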
